A study of Homo sapiens with 12 samples.

Results

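Genes of zinc handling were followed in 12 RNA-seq libraries from a pair of B-lineage acute lymphoblastic leukaemia lines: the metallothionein genes MT1E, MT1F, MT1G, MT1X and MT2A, the zinc-sensing transcription factor gene MTF1, and SLC30A1, the gene of a zinc exporter. They were found by symbol in the count table, and all 7 of these genes, out of 59611 symbols, were present and among the 15218 genes with enough counts to test. Among them, MT1E was chosen by the size of its change in 697 and MT1G by the size of its change in KOPN-8, both in earlier results of these data. Those changes, and the differences between the lines that hold them, are therefore described without a test.

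The libraries came from 697 and from KOPN-8, a line with a KMT2A fusion. The edited 697 libraries were from the single clone BM_B and the edited KOPN-8 libraries from the single clone BA, both made with a guide RNA against SETD2, the main enzyme of H3K36 trimethylation, and both labelled SETD2 heterozygous KO. The control of each line carried an empty guide vector and was labelled SETD2 WT. Each of the 4 groups had 3 libraries, and the labels name no treatment. The edit cannot be told apart from other differences of a clone, and no parent line was analysed here.

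Metallothioneins are small cysteine-rich proteins that hold zinc and copper through their thiol groups, buffer free zinc and take up toxic metals such as cadmium. When free zinc rises, it binds the zinc fingers of MTF1, which then binds metal response elements in front of the metallothionein genes and of SLC30A1, whose protein moves zinc out of the cell across the plasma membrane. The functional human metallothionein genes studied here lie side by side on the long arm of chromosome 16, and glucocorticoids and oxidative stress are also known to raise MT2A and several of the MT1 genes.

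The 5 metallothionein genes encode nearly the same protein. Their coding sequences are printed because the counts of one gene can borrow reads from another, and capitals mark the codons for cysteine, the residue that binds the metal (GENCODE release 29, GRCh38, chromosome 16, 5′ to 3′).
MT2A: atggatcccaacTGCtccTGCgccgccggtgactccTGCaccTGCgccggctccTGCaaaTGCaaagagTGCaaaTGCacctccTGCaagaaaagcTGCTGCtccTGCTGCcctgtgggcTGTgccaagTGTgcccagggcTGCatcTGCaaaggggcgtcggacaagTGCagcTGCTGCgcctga
MT1E: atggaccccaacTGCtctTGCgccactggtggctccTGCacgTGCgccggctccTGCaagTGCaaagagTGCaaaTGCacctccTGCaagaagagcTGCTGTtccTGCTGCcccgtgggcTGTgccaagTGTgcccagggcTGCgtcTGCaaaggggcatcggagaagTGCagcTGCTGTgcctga
MT1F: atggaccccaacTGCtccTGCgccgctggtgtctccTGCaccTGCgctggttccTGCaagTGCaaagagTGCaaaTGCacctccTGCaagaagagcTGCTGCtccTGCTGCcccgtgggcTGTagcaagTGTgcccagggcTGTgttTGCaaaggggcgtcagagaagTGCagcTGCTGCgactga
MT1G: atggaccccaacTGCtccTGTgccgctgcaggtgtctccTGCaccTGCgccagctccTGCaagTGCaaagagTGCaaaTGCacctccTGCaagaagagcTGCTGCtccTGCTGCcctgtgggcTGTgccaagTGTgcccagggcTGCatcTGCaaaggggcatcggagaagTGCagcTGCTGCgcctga
MT1X: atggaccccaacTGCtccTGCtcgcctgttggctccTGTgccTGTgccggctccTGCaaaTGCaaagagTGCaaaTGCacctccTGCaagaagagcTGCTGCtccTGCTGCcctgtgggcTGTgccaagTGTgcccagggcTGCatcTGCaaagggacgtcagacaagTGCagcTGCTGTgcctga
Each sequence had 20 cysteine codons, 32.8% of the sense codons in MT2A, MT1E, MT1F and MT1X and 32.3% in MT1G. The 10 pairs were 88.7% to 95.2% identical, and their longest shared run was between 32 and 96 bases, the longest being between MT1G and MT1X. Of the 50-base windows of a whole transcript, 20.2% in MT1G and 15.96% in MT1X also occurred in another metallothionein, against 4.88% in MT2A, 5.34% in MT1E and 3.59% in MT1F. How reads that match several genes were counted is not given in the sources used here, so low counts of one member next to an abundant one are uncertain.

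The promoters were searched for the letters that MTF1 is known to bind. Capitals mark the core of the metal response element, TGCACNC or TGCGCNC, on either strand, in the 250 bases before the start of the gene (RefSeq, GRCh38.p14, printed 5′ to 3′ along the gene). The windows are chr16:56608334-56608583 on the plus strand for MT2A, chr16:56682220-56682469 on the plus strand for MT1X and chr1:211579162-211579411 on the minus strand for SLC30A1.
MT2A: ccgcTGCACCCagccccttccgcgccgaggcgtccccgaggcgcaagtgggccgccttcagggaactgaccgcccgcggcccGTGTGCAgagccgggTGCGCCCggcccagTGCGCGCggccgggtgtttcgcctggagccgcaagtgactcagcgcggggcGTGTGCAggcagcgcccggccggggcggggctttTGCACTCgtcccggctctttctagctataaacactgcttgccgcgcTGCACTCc
MT1X: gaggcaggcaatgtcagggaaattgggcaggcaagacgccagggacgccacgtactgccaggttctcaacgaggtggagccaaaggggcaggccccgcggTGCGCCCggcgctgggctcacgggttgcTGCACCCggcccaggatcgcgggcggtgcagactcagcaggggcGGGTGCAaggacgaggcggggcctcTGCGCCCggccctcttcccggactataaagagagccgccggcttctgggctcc
SLC30A1: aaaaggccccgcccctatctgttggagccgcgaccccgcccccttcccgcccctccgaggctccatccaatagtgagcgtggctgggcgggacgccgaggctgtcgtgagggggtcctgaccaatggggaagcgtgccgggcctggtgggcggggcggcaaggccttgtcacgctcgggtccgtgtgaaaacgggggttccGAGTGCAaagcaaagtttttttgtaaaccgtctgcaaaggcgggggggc
MT2A held 7 separate matches, MT1X 4, SLC30A1 1 and MTF1 itself 0. Of 35116 promoter windows of this length, 24.8% held at least 1 match, 0.208% at least 4 and 0.0228% at least 7. In MT1X the matches began 53, 78, 122 and 150 bases before the start, and in SLC30A1 the match began 49 bases before it. The SLC30A1 window and distance are counted from the RefSeq start, which differs from that of its GENCODE transcript. A match is a run of letters and not a measured binding site. The table had promoters for 4 of the 7 genes, and MT1E, MT1F and MT1G were the others.

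Library totals ran from 10378769 to 18278662 counts, and levels are given as CPM, counts scaled to the TMM-scaled library size. Where a library had 0 counts, the level could still be as high as 3 counts, which is 0.159 to 0.292 CPM depending on the library. Such limits and the intervals below cover counting error only. SETD2 itself was called higher in edited 697 and was not called in KOPN-8. It averaged 219 ± 17.2 CPM in edited and 161 ± 6.96 CPM in control 697 (log2 fold change 0.44, SE 0.0692; edgeR adjusted p = 0.000103), and 158 ± 6.05 CPM in edited and 169 ± 9.23 CPM in control KOPN-8 (SD, n = 3 each; log2 fold change -0.10, SE 0.0689; edgeR adjusted p = 0.309). Gene-level counts do not check the label of a heterozygous KO. All 9 B-lineage markers exceeded 1 CPM in every group, whereas 0 of 4 T-cell and 0 of 5 erythroid markers did. Adjusted p-values below are from edgeR's quasi-likelihood test with Benjamini-Hochberg adjustment over the 15218 genes, and a gene was called, that is, said to have risen or fallen, at an adjusted p under 0.05. Replicates are called biological in the labels, with nothing on how their cultures were separated, so p-values measure the spread between these libraries.

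**Figure D1:**
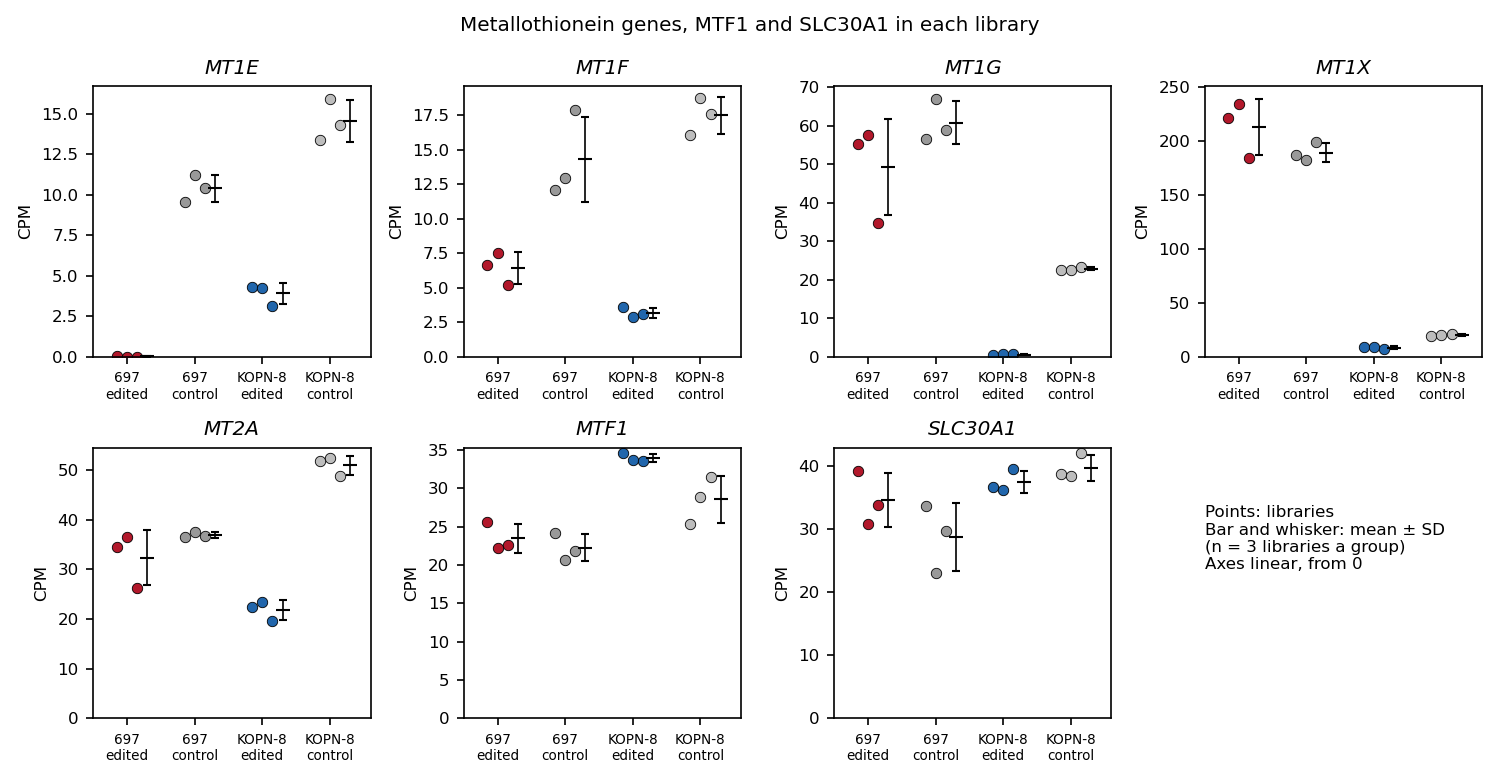
Level of each of the 7 genes in CPM (vertical axes, linear from 0) in the 12 libraries, by group along the horizontal axes; points are libraries and the bar with whiskers is the mean ± SD (n = 3). MT1E is near 0 in the edited 697 libraries, MT1G is at 0.424 to 0.665 CPM in the edited KOPN-8 libraries, and MT1X is highest in 697.

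The 4 metallothionein genes other than MT1G stood lower in edited KOPN-8 than in its control, with no overlap of the groups, as for 24.7% of all genes tested. MT1G also stood lower, but it was chosen by the size of this change and is not counted there. The 4 with a test, MT1E, MT1F, MT1X and MT2A, all fell, while 17.2% of all genes tested were called lower in this comparison. MT2A, the most abundant of them in this line per kilobase and a widely expressed isoform, had 22.4, 23.5 and 19.6 CPM in edited KOPN-8 (mean 21.8 ± 1.98, SD, n = 3) against 51.7, 52.3 and 48.7 CPM in control KOPN-8 (mean 50.9 ± 1.94). The groups were far apart, with a log2 fold change of -1.22 (SE 0.1004; edgeR adjusted p = 9.82e-10). MT1X had 9.11, 9.26 and 6.87 CPM in edited KOPN-8 (mean 8.42 ± 1.34) against 19.7, 19.8 and 20.8 CPM in control KOPN-8 (mean 20.1 ± 0.598). Again no edited library reached a control, and the log2 fold change was -1.26 (SE 0.116; edgeR adjusted p = 7.08e-09).

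MT1E and MT1F, both isoforms of the MT1 group, had larger fitted decreases in KOPN-8 than MT2A and MT1X. MT1E had 4.29, 4.26 and 3.16 CPM in edited KOPN-8 (mean 3.91 ± 0.647, SD, n = 3) against 13.4, 15.9 and 14.3 CPM in control KOPN-8 (mean 14.5 ± 1.29), a log2 fold change of -1.90 (SE 0.156; edgeR adjusted p = 1.01e-09). MT1F had 3.60, 2.87 and 3.10 CPM in edited KOPN-8 (mean 3.19 ± 0.376) against 16.1, 18.8 and 17.6 CPM in control KOPN-8 (mean 17.5 ± 1.33), with a log2 fold change of -2.44 (SE 0.168; edgeR adjusted p = 4.21e-11). The highest edited library was far below the lowest control in both genes. MT1G was the member singled out for its change in this line. It had 0.424, 0.662 and 0.665 CPM in edited KOPN-8 (mean 0.584 ± 0.138) against 22.6, 22.6 and 23.3 CPM in control KOPN-8 (mean 22.8 ± 0.405). This is 29 counts in the edited libraries together against 1122 in the controls, a ratio of control to edited of 39.8 (95% counting interval 27.6 to 59.8), and the fitted log2 fold change was -5.29.

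In these bulk libraries fewer cells that make a transcript and less transcript per cell cannot be told apart. Of 6 myeloid markers, 3 were tested, and in edited KOPN-8 LYZ, the lysozyme gene, was called higher, while ITGAM and CSF1R were not called; 28.7% of all genes tested were called in this comparison. Of the 6, 2 exceeded 1 CPM in the edited libraries and 1 in the controls, and their summed level was 4.40 to 5.71 CPM in the edited libraries against 1.85 to 3.09 CPM in the controls. LYZ was at 2.97 ± 0.358 CPM in edited and 0.522 ± 0.254 CPM in control KOPN-8 (SD, n = 3 each). ITGAM, an integrin gene of myeloid cells, was at 2.02 ± 0.376 CPM in edited and 1.71 ± 0.294 CPM in control KOPN-8. MPO and ELANE, of myeloid granules, and CSF1R, a macrophage growth factor receptor gene, had 0 counts in the edited KOPN-8 libraries. They were nearly as empty in the KOPN-8 controls, with 1, 0 and 2 counts in the same order. In 697 the summed level was 0.883 to 1.75 CPM in the edited libraries against 1.70 to 2.18 CPM in the controls. The part of these markers in the metallothionein values was not tested.

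In 697 the edited clone showed another pattern: MT1E was nearly absent, MT1F was lower, and the abundant MT1X, MT1G and MT2A overlapped between the groups. MT1E, the member singled out in this line, had 1, 0 and 0 counts in the edited libraries, or 0.0744, 0 and 0 CPM, against 9.55, 11.2 and 10.4 CPM in control 697 (mean 10.4 ± 0.824, SD, n = 3). The 3 edited libraries together held 1 count and the 3 controls 469, and the edited level was 0.258% of the control level (95% counting interval 0.00652% to 1.44%). MT1F had 6.62, 7.51 and 5.17 CPM in edited 697 (mean 6.43 ± 1.18) against 12.1, 12.9 and 17.9 CPM in control 697 (mean 14.3 ± 3.11). In the fit without replicate number, it was the only one of the 6 members with a test in 697 that was called. Its log2 fold change was -1.13 (SE 0.161; edgeR adjusted p = 2.79e-05), and 4.60% of all genes tested were called lower there. With replicate number as a block, 3 of the 6 were called, MT1G and SLC30A1 being those added. That fit called 1156 of 15218 genes tested higher and 1163 lower in 697.

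MT1X carried most of the metallothionein counts of 697 and was not called. It had 221, 234 and 184 CPM in edited 697 (mean 213 ± 26.0, SD, n = 3) against 187, 182 and 199 CPM in control 697 (mean 189 ± 8.70), a log2 fold change of 0.18 (SE 0.0828; edgeR adjusted p = 0.213). MT1G had 55.4, 57.7 and 34.9 CPM in edited 697 (mean 49.3 ± 12.5) against 56.5, 67.0 and 59.1 CPM in control 697 (mean 60.9 ± 5.50), with a log2 fold change of -0.30 (SE 0.130; edgeR adjusted p = 0.186). With replicate number as a block, it was -0.31 with an edgeR adjusted p = 0.0319, and with no count filter -0.29 with an edgeR adjusted p = 0.0320. MT2A had 34.4, 36.5 and 26.1 CPM in edited 697 (mean 32.4 ± 5.50) against 36.5, 37.5 and 36.6 CPM in control 697 (mean 36.9 ± 0.564), a log2 fold change of -0.18 (SE 0.101; edgeR adjusted p = 0.310).

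The third edited 697 library was the lowest of its group in MT1F, MT1G, MT1X and MT2A, and it was also the shallowest of the 12. Without it, MT1X was called higher, with a log2 fold change of 0.27 (edgeR adjusted p = 0.0382). The part of depth or of this culture in the values was not tested.

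**Figure D2:**
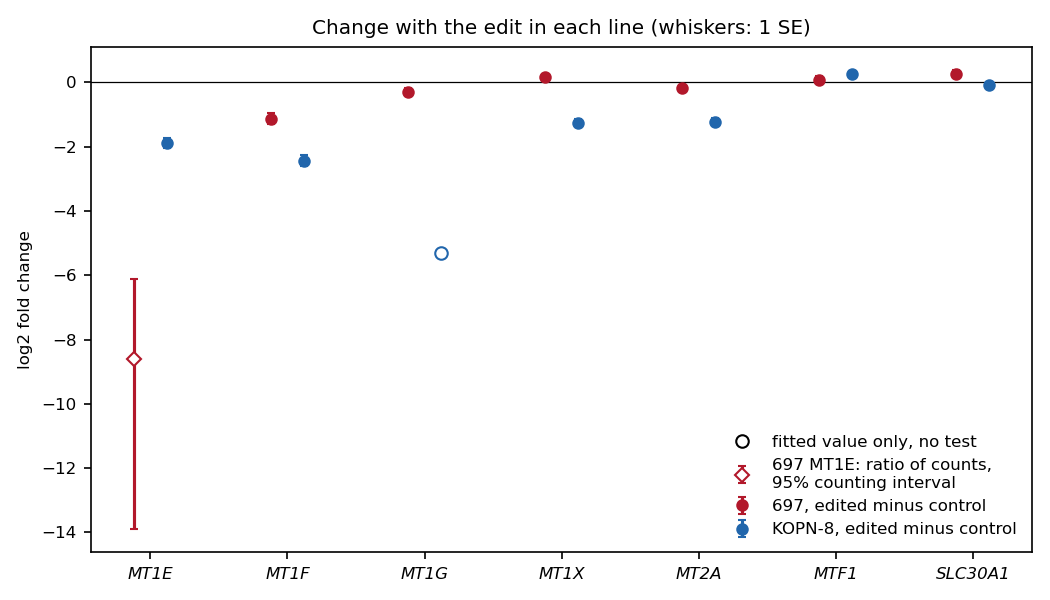
log2 fold change of edited minus control (vertical axis) for the 7 genes in each line; filled points are fitted values with whiskers of 1 SE, the open circle is the fitted value of MT1G in KOPN-8, and the open diamond is the ratio of counts of MT1E in 697 with its 95% counting interval. The metallothionein genes lie at -1.22 or below in KOPN-8, while MT1G, MT1X and MT2A lie between -0.30 and 0.18 in 697.

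The change with the edit differed between the lines for each of the 3 metallothionein genes that could be tested for it. The KOPN-8 change minus the 697 change was -1.31 for MT1F (SE 0.237; edgeR adjusted p = 0.000220), -1.44 for MT1X (SE 0.143; edgeR adjusted p = 5.55e-08) and -1.04 for MT2A (SE 0.142; edgeR adjusted p = 6.05e-06), all on the log2 scale. Of all genes tested, 12.1% were called lower and 7.46% higher in this comparison. The fitted differences for MT1G and MT1E, given with no test, were -5.00 and, in the opposite direction, 6.31, the MT1E value resting on the 1 count of edited 697.

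Adding up the 5 genes gave a metallothionein total for each library. It was 39.9, 40.5 and 33.4 CPM in edited KOPN-8 (mean 37.9 ± 3.92, SD, n = 3) against 123, 129 and 125 CPM in control KOPN-8 (mean 126 ± 3.12), so that the edited total was 0.301 of the control total. It was 318, 336 and 250.3 CPM in edited 697 (mean 301 ± 45.1) against 301, 311 and 323 CPM in control 697 (mean 311 ± 10.7), a ratio of 0.967. The 697 groups overlapped, and the ratio was 1.05 without the third edited library.

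The gene that supplied most of the total differed by line, MT1X in both 697 groups and MT2A in both KOPN-8 groups, and the shares differed between edited and control libraries. In edited 697, MT1X made 71.0% of the metallothionein counts, against 60.7% in control 697. MT1E made 0.00781% of the counts in edited 697 against 3.33% in its control, and MT1F 2.13% against 4.57%. In edited KOPN-8, MT2A made 57.6% of the counts, against 40.5% in control KOPN-8, and MT1G made 1.56% against 18.2%. Without MT1E and MT1G, the 3 other genes summed to 252 ± 32.6 CPM in edited and 240.2 ± 11.3 CPM in control 697, and to 33.4 ± 3.34 CPM in edited and 88.5 ± 2.08 CPM in control KOPN-8 (SD, n = 3 each). The lower total of edited KOPN-8 was thus also present in the genes that were not singled out.

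**Figure D3:**
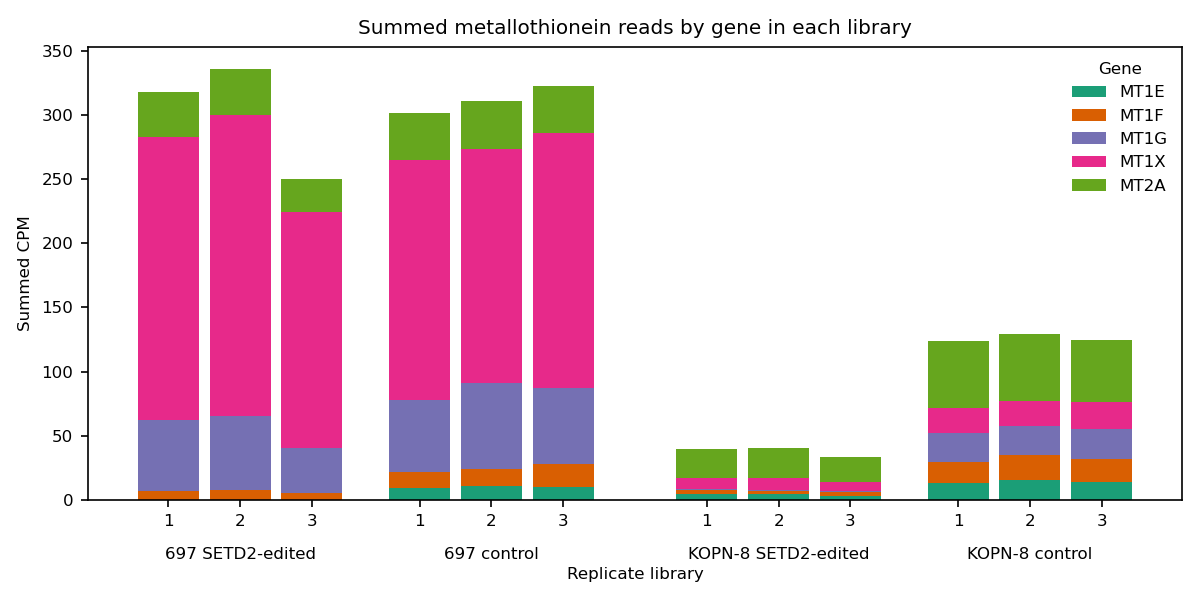
Summed CPM of the 5 metallothionein genes (vertical axis, linear from 0) in each replicate library (horizontal axis), stacked by gene. Edited KOPN-8 totals are 33.4 to 40.5 CPM against 123 to 129 CPM in its controls, and MT1X makes most of every 697 bar.

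The controls of the lines already differed in these genes. MT1X was 20.1 ± 0.598 CPM in control KOPN-8 and 189 ± 8.70 CPM in control 697 (SD, n = 3 each), a log2 difference of -3.23 (SE 0.0962; edgeR adjusted p = 2.02e-19). MT2A was higher in control KOPN-8 by 0.46 (SE 0.0969; edgeR adjusted p = 0.000155), and MT1F, at 17.5 ± 1.33 CPM in control KOPN-8 and 14.3 ± 3.11 CPM in control 697, was not called (log2 difference 0.30, SE 0.141; edgeR adjusted p = 0.0602). Its p fell under the threshold without the third 697 control library (edgeR adjusted p = 0.00707), without the first KOPN-8 control library (edgeR adjusted p = 0.0499) or with no count filter (edgeR adjusted p = 0.0457), and was 0.248 at its highest over the 11 alternatives. The fitted differences of MT1E and MT1G, given with no test, were 0.49 and -1.41. Of the 5 members with a test 4 were called, 1 lower and 3 higher, and 73.3% of all genes tested were called, 36.7% lower and 36.6% higher, so the count says little about these genes. The summed metallothionein CPM of control KOPN-8 was 0.404 of that of control 697.

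The order of the 4 groups differed between the genes. MT1E stood highest in control KOPN-8, then in control 697, edited KOPN-8 and edited 697, with no overlap between neighbours. MT1F was highest in the controls of both lines, which overlapped, then in edited 697 and lowest in edited KOPN-8. MT1G and MT1X were highest in both 697 groups, which overlapped, followed by control and then edited KOPN-8. MT2A was highest in control KOPN-8, then in the overlapping 697 groups, and lowest in edited KOPN-8. Edited KOPN-8 was thus the lowest group for MT1F, MT1G, MT1X and MT2A, and edited 697 for MT1E.

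Levels of different genes were set beside each other per kilobase of transcript. In control 697, MT1X had 420 ± 19.3 CPM per kb, ahead of MT1G at 150.3 ± 13.6 and MT2A at 46.9 ± 0.717 CPM per kb (SD, n = 3). MT1F and MT1E, at 20.7 ± 4.502 and 14.7 ± 1.17 CPM per kb, were the lowest metallothioneins there. In control KOPN-8 the level was 64.8 ± 2.46 CPM per kb for MT2A, 56.4 ± 0.999 for MT1G, 44.6 ± 1.33 for MT1X, 25.3 ± 1.93 for MT1F and 20.6 ± 1.83 for MT1E. The highest and the lowest metallothionein were thus further apart in control 697 than in control KOPN-8. In edited KOPN-8 MT2A led at 27.8 ± 2.52 CPM per kb and MT1G was last at 1.44 ± 0.341 CPM per kb. Over the union of exons of protein-coding transcripts in the basic annotation, a longer length, the order of the 5 genes in each control was the same. The levels were lower, at 230 CPM per kb for MT1X and 81.2 for MT1G in control 697, and 51.4 for MT2A and 30.5 for MT1G in control KOPN-8.

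MTF1, the transcription factor that turns metallothionein genes on, was called in neither line. It had 34.6, 33.7 and 33.6 CPM in edited KOPN-8 (mean 34.0 ± 0.549, SD, n = 3) against 25.4, 28.8 and 31.5 CPM in control KOPN-8 (mean 28.6 ± 3.06). Every edited library was above every control, as for 20.4% of all genes tested, but the log2 fold change of 0.25 missed the threshold (SE 0.0941; edgeR adjusted p = 0.0525). Under 6 of 12 alternatives it passed, with adjusted p between 0.0174 and 0.266 over all of them (edgeR or DESeq2), and without the third control library the edgeR adjusted p was 0.0295. It had 25.6, 22.2 and 22.6 CPM in edited 697 (mean 23.5 ± 1.87) against 24.1, 20.7 and 21.8 CPM in control 697 (mean 22.2 ± 1.75), a log2 fold change of 0.08 (SE 0.101; edgeR adjusted p = 0.709). The KOPN-8 change minus the 697 change was not called either (0.17, SE 0.138; edgeR adjusted p = 0.459). Control KOPN-8 had more MTF1 than control 697, by 0.37 on the log2 scale (SE 0.0976; edgeR adjusted p = 0.00176).

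SLC30A1, the zinc exporter that MTF1 controls together with the metallothionein genes, lay between 23.0 and 42.0 CPM in all 12 libraries. It had 36.6, 36.2 and 39.5 CPM in edited KOPN-8 (mean 37.4 ± 1.78, SD, n = 3) against 38.7, 38.3 and 42.0 CPM in control KOPN-8 (mean 39.6 ± 2.01), overlapping groups with a log2 fold change of -0.08 (SE 0.108; edgeR adjusted p = 0.624). It had 39.1, 30.8 and 33.8 CPM in edited 697 (mean 34.6 ± 4.23) against 33.6, 23.0 and 29.7 CPM in control 697 (mean 28.8 ± 5.37). Here the log2 fold change was 0.27 (SE 0.114; edgeR adjusted p = 0.155), and each edited library was above the control with the same replicate number. With replicate number as a block it was 0.27 with an edgeR adjusted p = 0.0168, and without the first 697 control library it was 0.40 with an edgeR adjusted p = 0.0253. The KOPN-8 change minus the 697 change was -0.35 (SE 0.157; edgeR adjusted p = 0.127), or -0.36 with the block (edgeR adjusted p = 0.0138). Without the first 697 control library the line difference had an edgeR adjusted p = 0.0219. Control KOPN-8 stood above control 697 by 0.47 on the log2 scale (SE 0.111; edgeR adjusted p = 0.000646), and all neighbouring groups in the order of levels overlapped.

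The other zinc transporters were read from fixed lists of the SLC30 family, which moves zinc out of the cytosol, and the SLC39 family, which moves it in. Of 5 SLC30 genes tested besides SLC30A1, 1 rose and 0 fell in edited 697, where 9.45% of all genes tested were called and 4.85% called higher, and 0 were called in edited KOPN-8, where 28.7% were. The gene that rose was SLC30A4, a zinc transporter of intracellular vesicles, at 1.90 ± 0.760 CPM in edited and 0.352 ± 0.0465 CPM in control 697 (SD, n = 3 each; log2 fold change 2.37, SE 0.476; edgeR adjusted p = 0.00151). It had 69 counts in the edited and 16 in the control libraries, so the value rests on few reads. The median log2 fold change of the SLC30 genes was 0.03 in 697 and 0.05 in KOPN-8, beside 0 for all genes in each line. In KOPN-8, DESeq2 also called 0 of the 5, and 1 was higher at an unadjusted p under 0.05.

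Of 11 SLC39 genes tested, 0 rose and 3 fell in edited KOPN-8, where 11.5% of all genes tested were called higher and 17.2% lower, and 0 rose and 1 fell in edited 697, where 4.85% were called higher and 4.60% lower. SLC39A14, which takes up zinc, iron and manganese, was at 33.1 ± 3.15 CPM in edited and 76.6 ± 4.23 CPM in control KOPN-8 (SD, n = 3 each; log2 fold change -1.22, SE 0.0965; edgeR adjusted p = 9.58e-10). It lies on chromosome 8, whose 424 tested genes had a median log2 fold change of -0.53 in KOPN-8. SLC39A8, another importer of zinc and manganese, was at 236 ± 17.98 CPM in edited and 314 ± 10.96 CPM in control KOPN-8 (log2 fold change -0.41, SE 0.0723; edgeR adjusted p = 9.79e-05). SLC39A10, whose transcription MTF1 is known to hold down, was at 98.4 ± 6.79 CPM in edited and 128 ± 4.75 CPM in control KOPN-8 (log2 fold change -0.37, SE 0.0774; edgeR adjusted p = 0.000583). In 697 it was SLC39A7, which releases zinc from the endoplasmic reticulum, that fell (log2 fold change -0.31, SE 0.0754; edgeR adjusted p = 0.00886), and its call was lost without the second control library (edgeR adjusted p = 0.0504). With replicate number as a block, 1 rose and 2 fell in 697, where 1156 of 15218 genes tested were called higher and 1163 lower. DESeq2 also called 0 SLC39 genes higher in KOPN-8, and 2 were higher at an unadjusted p under 0.05. The medians of the 11 genes were -0.03 in 697 and 0.04 in KOPN-8.

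**Figure D4:**
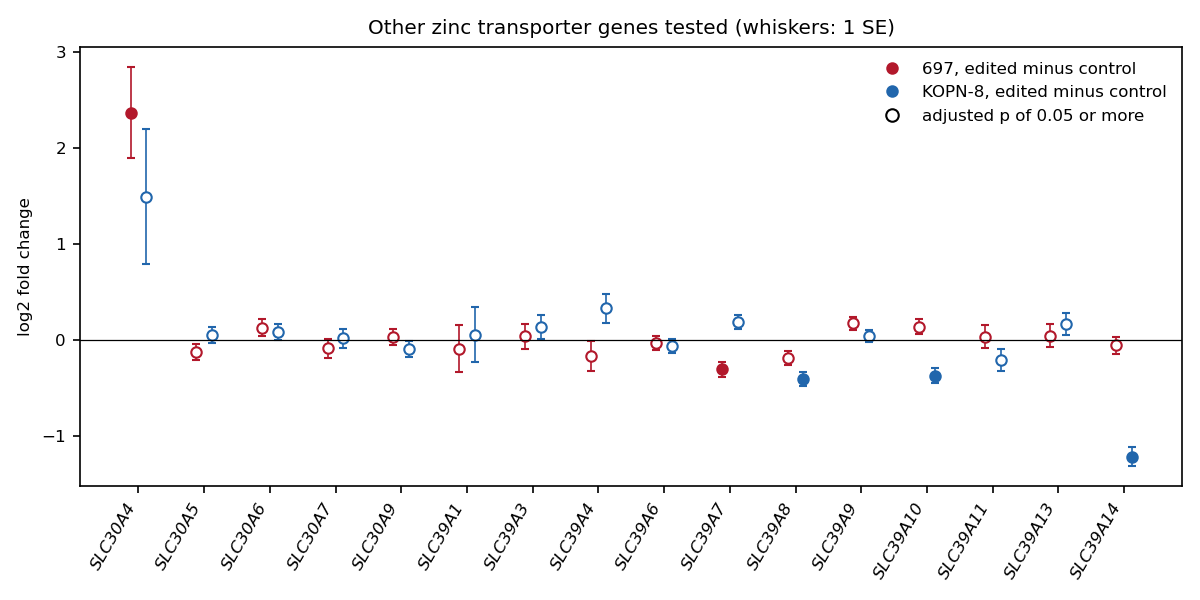
log2 fold change of edited minus control (vertical axis) with whiskers of 1 SE for the 16 zinc transporter genes tested besides SLC30A1, in each line; filled points passed the test. SLC30A4 is called in 697 at 2.37, and SLC39A8, SLC39A10 and SLC39A14 are called lower in KOPN-8.

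Targets of MTF1 outside the metallothioneins moved in both directions or were not called. Among them, SLC39A10 is a target that MTF1 is known to hold down. Neither the directions nor the median therefore give the activity of MTF1, which was not tested. Of 5 genes in the list, 3 were tested: GCLC, SELENOW and SLC39A10. In edited KOPN-8, 1 rose and 1 fell, where 11.5% of all genes tested were called higher and 17.2% lower. In edited 697, 0 were called by edgeR, by DESeq2 or at an unadjusted p under 0.05. There edgeR called 9.45% of all genes tested, so the 0 says little about these genes. GCLC, the catalytic subunit of the enzyme that starts glutathione synthesis, was at 30.2 ± 0.196 CPM in edited and 18.9 ± 0.309 CPM in control KOPN-8 (SD, n = 3 each; log2 fold change 0.67, SE 0.0895; edgeR adjusted p = 2.27e-06), while SLC39A10 fell as given above. The medians were 0.01 in 697 and 0.06 in KOPN-8.

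Genes that heavy metals and misfolded protein raise were also measured, 11 of them with enough counts. In edited 697, 1 rose and 0 fell, and in edited KOPN-8, 1 rose and 2 fell, with medians of 0.00 and 0.03. The shares of all genes tested were 4.85% higher and 4.60% lower in 697, and 11.5% higher and 17.2% lower in KOPN-8, so the counts in this list were near the background. With replicate number as a block, 2 rose and 2 fell in 697, where 1156 of 15218 genes tested were called higher and 1163 lower. SLC7A11, the cystine importer, was at 25.3 ± 2.13 CPM in edited and 6.85 ± 2.08 CPM in control 697 (SD, n = 3 each; log2 fold change 1.90, SE 0.258; edgeR adjusted p = 0.000180). GCLM, the partner subunit of GCLC, was at 26.5 ± 1.83 CPM in edited and 15.5 ± 1.92 CPM in control KOPN-8 (log2 fold change 0.77, SE 0.108; edgeR adjusted p = 4.56e-06). HSPA1B, a heat shock protein gene with a near-identical copy, fell in KOPN-8 with a log2 fold change of -0.43 (SE 0.133; edgeR adjusted p = 0.0177), a call lost when any one of 4 libraries was left out (edited replicate 2 or 3, control replicate 1 or 2; highest edgeR adjusted p = 0.161). HSPB1, a small heat shock protein gene, fell with a log2 fold change of -0.83 (SE 0.217; edgeR adjusted p = 0.0189), and its call was lost with no count filter, without the third edited library and without the first control (highest edgeR adjusted p = 0.0698).

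No tested neighbour of the metallothionein cluster on chromosome 16 was called lower in KOPN-8. Of 16 flanking genes tested, 3 rose and 0 fell in edited KOPN-8 by edgeR, with a median of 0.08, while 11.5% of all genes tested were called higher and 17.2% lower. DESeq2 also gave 0 lower, and 1 was lower at an unadjusted p under 0.05. In edited 697, 1 rose and 1 fell, with a median of 0.05, where 4.85% of all genes tested were called higher and 4.60% lower. With replicate number as a block, 2 rose and 1 fell, where 1156 of 15218 genes tested were called higher and 1163 lower. BBS2, a gene of the ciliary BBSome complex and the nearest tested gene on the MT2A side, rose in 697, at 34.1 ± 1.45 CPM in edited and 21.9 ± 2.59 CPM in control libraries (SD, n = 3 each; log2 fold change 0.64, SE 0.0918; edgeR adjusted p = 3.04e-05). NUP93, a nuclear pore gene and the nearest on the MT1X side, had fitted log2 fold changes of 0.14 in 697 and -0.13 in KOPN-8 and was called in neither.

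The flanking genes that rose in edited KOPN-8 numbered 3. DOK4, a docking protein gene, had a log2 fold change of 1.02 (SE 0.129; edgeR adjusted p = 1.15e-06) and NLRC5, the activator of HLA class I genes, of 0.68 (SE 0.0748; edgeR adjusted p = 1.36e-07). CETP, a lipid transfer protein gene, had 19 counts in the edited and 4 in the control libraries (log2 fold change 2.10, SE 0.651; edgeR adjusted p = 0.0168), a call lost without the second edited, the first control or the third control library (highest edgeR adjusted p = 0.0783). Over the whole of chromosome 16 the median log2 fold change of 602 tested genes was -0.03 in 697 and 0.06 in KOPN-8. Gene order was taken from an annotation of another build than the files' and used for order only.

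**Figure D5:**
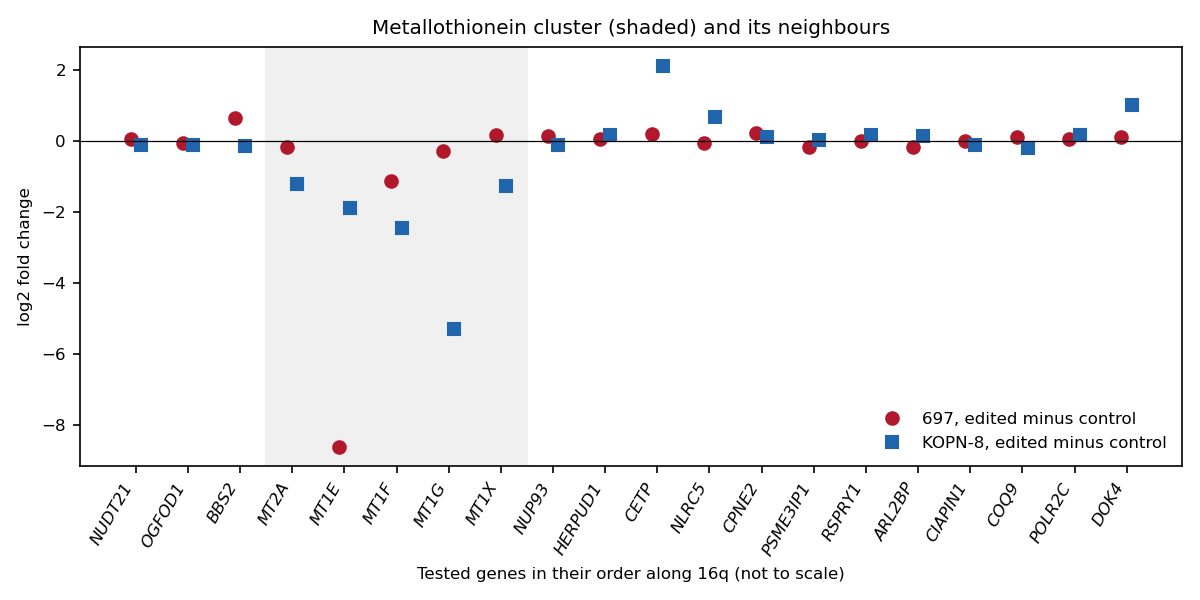
log2 fold change of edited minus control (vertical axis) of the 5 metallothionein genes (shaded) and 15 of the tested neighbours in their order along 16q (horizontal axis, not to scale), in each line; MT1E in 697 is the ratio of counts. In KOPN-8 all 5 shaded genes are at or below -1.22, while no plotted neighbour is called lower.

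The rest of the metallothionein family was silent or nearly so. Of 15 other family members and pseudogenes in the table, 5 had a count in any library. MT1A, MT1B, MT1L, MT1HL1, MT3, MT4, MT1DP, MT1CP, MT1P1 and MT1P3 had 0 counts in all 12 libraries, where 3 counts would be at most 0.292 CPM in a library. MT1H had 4, 4 and 11 counts in edited and 0, 2 and 2 in control 697, and 0, 0 and 0 counts in edited and 5, 1 and 0 in control KOPN-8. MT1M had 8 counts in all, MT1JP 1 and the pseudogene MT2P1 46. MT1XP1, a pseudogene that may take reads from MT1X, had 51 counts in edited and 49 in control 697, and 1 count in edited and 8 in control KOPN-8. It was the only one tested and was called in neither line. Silent or nearly silent genes also held the metal response element letters in their promoters, with 8 matches for MT1H, 3 for MT1B and 3 for MT4.

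Across the 12 libraries, the genes most like each member were found by Pearson correlation of log2 CPM among 11598 genes that reached a mean of 5 CPM in a group. The points share their libraries and the lines differ widely, so these values describe the pattern and carry no test. The genes closest to MT1G were LDLRAD3 (r = 0.996), ECE1 (0.993) and ADAM22 (0.992). LDLRAD3 averaged 0.0430 CPM in edited and 32.0 CPM in control KOPN-8, and 124 CPM in edited and 112 CPM in control 697. Among the genes closest to MT1X were BMPR2 and TP53I11, with r = 0.997 for each, both far higher in 697. MT1E was closest to SELENON (0.976), OAT (0.968) and MPC1 (0.963). SELENON averaged 20.2 CPM in edited and 86.7 CPM in control 697, and 69.4 CPM in edited and 75.8 CPM in control KOPN-8, so it was low in edited 697 as MT1E was.

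MT1F was closest to KCNC4 (r = 0.973), MPLKIP (0.965) and GCAT (0.958), and MT2A to POLB (0.971), AMOTL1 (0.960) and DOCK9 (0.949). DOCK9 averaged 12.01 CPM in edited and 51.2 CPM in control KOPN-8, and 25.1 CPM in edited and 24.3 CPM in control 697. MTF1 was closest to ORC2 (0.974), CDK12 (0.971) and BTBD7 (0.963), and among those closest to SLC30A1 were TBC1D32 (0.945) and QTRT2 (0.926). No metallothionein was among the 3 genes closest to MTF1 or SLC30A1. That search kept the highest r only, so a gene running opposite to a member could not appear. Over the 12 libraries MTF1 had r = -0.908 with MT1X, -0.867 with MT1G, -0.493 with MT1F, -0.392 with MT2A and 0.263 with MT1E. SLC30A1 had r = -0.598 with MT1X, -0.410 with MT1G, -0.180 with MT1F, -0.0109 with MT2A and 0.00844 with MT1E. The part of the line difference in these values was not tested.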

How the data were processed

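Poly-A RNA of cultured 697 and KOPN-8 cells was sequenced from stranded libraries, per the labels' protocols. The submitters' processing notes name Trimmomatic, STAR, DESeq2 and the hg19 build; which versions, counter and annotation served is not given in the sources used here. Whole-number read counts by gene symbol were deposited by the authors and used for all results. Their second deposited table, counts over a library factor (a signal), was not used.

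The robust quasi-likelihood F test of edgeR 4.0.16, under R 4.3.3, was run on the counts after filterByExpr over the 4 groups and TMM scaling, all 12 libraries in 1 fit with a mean per group. This kept 15218 of the 30589 genes that had a count, with 99.9% of the counts in the lowest library. Benjamini-Hochberg adjustment covered every gene tested. SE is the log2 fold change over the root of its F statistic. CPM use TMM-scaled library sizes, and CPM per kb divide by the length of the GENCODE 29 transcript whose coding sequence is printed. The contrasts were the edited minus the control group per line, the KOPN-8 change minus the 697 change, and KOPN-8 control minus 697 control. Summed levels got no test.

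Members and lists were chosen with earlier results of these data known. The rule named the 7 members, other metallothioneins with a count, up to 3 called genes per list and line by smallest p, and the 3 genes most like each member. NUP93, SELENOW and the markers LYZ, ITGAM, MPO, ELANE and CSF1R were named outside it, after their values were seen. A few genes that the rule names are not reported here. Lists are described by counts and medians. Sequences came from GENCODE 29 and RefSeq tables and were compared with Biopython 1.88. The scripts were tested on simulated data.

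Between replicates, chi-square over its degrees of freedom was 2.92 to 10.8, above sampling noise. Same-numbered 697 libraries deviated together (r = 0.105, 0.207 and 0.104) and on this alone count as paired; those of KOPN-8 (0.0508, 0.0362 and 0.0743) were not. The alternatives were RLE and upper-quartile scaling, DESeq2 1.42.0, no count filter, the 2 groups of a comparison alone, the replicate block and leaving out each library.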

Additional observations from a re-analysis of the deposited data

Results flagged for a closer look

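Several changes with the edit differed between the lines by the test of the difference itself, the KOPN-8 change minus the 697 change on the log2 scale (edgeR quasi-likelihood, adjusted p in each case under the threshold). Among the metallothionein genes these were MT1F at -1.31, MT1X at -1.44 and MT2A at -1.04.

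Among the zinc transporters the difference was -1.16 for SLC39A14, -0.51 for SLC39A10 and 0.50 for SLC39A7. For the glutathione enzyme genes it was 0.66 for GCLC and 1.06 for GCLM. STEAP3, a metalloreductase gene, differed by -1.28. Beside the cluster, it was -0.78 for BBS2, 0.74 for NLRC5 and 0.91 for DOK4. Of the glucocorticoid response genes, SGK1 differed by -2.99, DUSP1 by 1.81 and FKBP5 by -0.34. Of all genes tested, 7.46% were called higher and 12.1% lower in this comparison.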

How the results depend on the processing

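Of 364 alternative values for the 7 members, 344 kept their direction and side of the threshold, 16 gained a call, 4 moved and 0 reversed; of 491 for the other named genes, 460 kept theirs, 31 lost a call and 0 reversed. The 4 that moved were fitted values of MT1E on leaving out edited 697 replicate 1 or 2. They were -10.3 and -7.70 in 697, and 8.41 and 5.81 in the KOPN-8 change minus the 697 change. These values rest on the 1 count of edited 697, and the part of the prior count of the fit was not tested. With the replicate block, genes called in 697 numbered 2319, against 1438 without it, and members called 3 of 6 with a test, against 1; the calls it added, on MT1G and SLC30A1, stand in the text, as does the SLC30A1 line difference. With no count filter 2 members were called in 697, MT1G being the one added, and leaving out 1 library gave 1 to 2. In KOPN-8, where the numbers did not pair the libraries, the block gave MTF1 a log2 fold change of 0.25 (edgeR adjusted p = 0.0174). There it called 1 of 11 SLC39 genes higher (SLC39A7), against 0 without it. It also called higher 5 of 16 flanking genes, against 3, and 2 of 11 metal and protein stress genes, against 1. Of all 15218 genes tested, 2280 were called higher in KOPN-8 with the block, against 1751 without it. The block was not run for the controls of the lines. The summed metallothionein CPM of edited over control 697 was 0.912 to 1.05 on leaving out 1 library, with 1.05, the opposite direction, without the third edited library; the cause was not tested. The sum in control KOPN-8 over control 697 was 0.379 with upper-quartile scaling and 0.424 with no scaling beyond library totals, against 0.404. Upper-quartile scaling moved the median of all genes between the controls to -0.10. Depth limits what can be said of MT1E in edited 697 (1 count), MT1G in edited KOPN-8 (29 counts), CETP in KOPN-8 (19 counts in edited and 4 in control) and MT1H (0 to 19 counts a group), and shared sequence limits how counts divide among the metallothionein genes.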

Other observations

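Copper, which metallothioneins also bind, has its own handling genes, and all 10 of the list were tested. In edited KOPN-8, 0 rose and 3 fell by edgeR, and likewise by DESeq2 or at an unadjusted p under 0.05, with a median log2 fold change of -0.16, while 17.2% of all genes tested were called lower. STEAP3, a metalloreductase gene, was at 3.79 ± 0.438 CPM in edited and 5.57 ± 0.365 CPM in control KOPN-8 (SD, n = 3 each; log2 fold change -0.57, SE 0.160; edgeR adjusted p = 0.00904), a call lost without the first edited library (edgeR adjusted p = 0.0629). SOD1, the copper-zinc superoxide dismutase gene, and SLC31A1, the copper importer gene, fell by 0.27 and 0.22 (edgeR adjusted p = 0.0240 and 0.0359). The SOD1 call was lost on leaving out any one of 4 libraries (edited replicate 1 or 3, control replicate 2 or 3) and that of SLC31A1 under 6 of 12 alternatives, among them leaving out each edited library, control replicate 1 or control replicate 3 (highest edgeR adjusted p = 0.0981 and 0.135). In edited 697, where 4.85% of all genes tested were called higher and 4.60% lower, 1 rose and 0 fell. With replicate number as a block, 2 rose and 1 fell in 697, where 1156 of 15218 genes tested were called higher and 1163 lower. STEAP3 was at 19.9 ± 2.42 CPM in edited and 12.2 ± 1.28 CPM in control libraries (log2 fold change 0.71, SE 0.127; edgeR adjusted p = 0.000413).

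Glucocorticoids are known to raise MT2A, and 8 of 10 response genes were tested. In edited KOPN-8, 1 rose and 5 fell, with a median of -0.37, while 11.5% of all genes tested were called higher and 17.2% lower. SGK1, a kinase gene, was at 63.3 ± 2.45 CPM in edited and 275 ± 12.5 CPM in control KOPN-8 (SD, n = 3 each; log2 fold change -2.12, SE 0.0817; edgeR adjusted p = 1.29e-15). FKBP5, a chaperone gene of the glucocorticoid receptor, was at 163 ± 9.18 CPM in edited and 229.6 ± 2.26 CPM in control KOPN-8 (log2 fold change -0.50, SE 0.0615; edgeR adjusted p = 7.89e-07). DUSP1, a MAP kinase phosphatase gene, went the other way, at 100.3 ± 14.9 CPM in edited and 25.3 ± 2.08 CPM in control KOPN-8 (log2 fold change 1.99, SE 0.115; edgeR adjusted p = 8.81e-11). In edited 697, 2 rose and 0 fell, with a median of -0.10, where 4.85% of all genes tested were called higher and 4.60% lower. With replicate number as a block, 3 rose and 2 fell, where 1156 of 15218 genes tested were called higher and 1163 lower. DESeq2 called 2 higher and 1 lower in edited 697. SGK1 rose by 0.87 (SE 0.127; edgeR adjusted p = 3.96e-05) and NR3C1, the receptor gene, by 0.26 (SE 0.0692; edgeR adjusted p = 0.0148), which was lost without edited replicate 3, without control replicate 3 and in the fit of the 2 groups alone (highest edgeR adjusted p = 0.0936).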
